A study of Mus musculus with 11 samples.

Results

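IL-25 plus ADM2 was compared with vehicle in cultured group 2 innate lymphoid cells (ILC2s) from the large intestine of mice. The comparison was made across all genes with enough counts, 15028 of the 27179 listed. Its libraries were chosen by their sample titles: IL-25 plus ADM2 replicates 2 and 3 and vehicle replicates 1, 2 and 3, which are 5 of the 11 libraries of the series. The other 6 libraries, 3 with IL-25 alone and 3 with ADM2 alone, took part in the estimate of the spread and are set beside the comparison where they show what each agent did by itself. All cells carried the genotype WT C57BL/6, were sorted as ILC2s and spent 3 h in RPMI medium that held 100 ng/ml of IL-2 and as much IL-7, so that vehicle cells were also under these growth cytokines. The IL-25 plus ADM2 cultures received 100 ng/ml IL-25 and 0.4 µg/ml ADM2, the IL-25 and ADM2 cultures 1 of these agents at the same dose, and the vehicle cultures neither. Neither the sex nor the age of the mice, nor whether replicates came from separate mice, is given in the labels, and the p-values below reflect sample-to-sample spread of a kind that could be technical alone. "Both agents" below stands for IL-25 plus ADM2.

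ILC2s are tissue lymphocytes without antigen receptors that answer signals from epithelium and nerves by secreting IL-5, IL-13 and amphiregulin. IL-25 is an epithelial alarmin that binds a receptor made of IL-17RB and IL-17RA and activates NF-kB and MAP kinases through the adaptor ACT1. ADM2 (adrenomedullin 2, or intermedin) is a peptide of the CGRP family whose receptor, CALCRL paired with a RAMP protein, couples mainly to Gs and raises cAMP, which activates protein kinase A and the transcription factor CREB.

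The libraries with both agents held 31084491 and 32150470 counts, those with vehicle 27401500 to 34062330. Levels are normalised read counts (CPM) after TMM scaling of library sizes, and changes are log2 fold changes of both agents over vehicle, ± SE. The ILC2 label was met by its markers. Gata3 lay at 1372 and 1311 CPM with both agents, against 960.1, 890.4 and 958 CPM with vehicle, and Il1rl1, the IL-33 receptor gene, at 1088 and 1090.2 CPM with both agents, against 427, 429 and 458 CPM with vehicle. Summed over each fixed marker list, ILC2 genes gave 27076 to 29260 CPM with both agents and 7903 to 8360 CPM with vehicle. Genes listed for other cell types gave less: T cell genes summed to 348 to 409.8 CPM with both agents and 354 to 424 CPM with vehicle. Most of the T cell sum was Trbc1 (253 and 295 CPM with both agents) and Trbc2 (80.1 and 98.7 CPM), while Cd3e lay at 3.45 and 1.55 CPM. B and plasma cell genes, nearly all Igkc and Jchain, summed to 1412 to 1651 CPM and 873 to 1309 CPM, with Pax5 at 0 in all 5 libraries. NK and ILC1 genes summed to 97.8 to 106 and 65.4 to 81.2 CPM, macrophage genes to 33.1 to 35.6 and 20.6 to 20.8 CPM, dendritic cell genes to 144 to 167 and 76.5 to 95.0 CPM, and mast cell, basophil and eosinophil genes to 0.55 to 1.17 and 0.06 to 0.73 CPM. Most of the dendritic cell sum was Xcr1, at 111 and 127 CPM with both agents and 46.6 to 61.7 CPM with vehicle. Epithelial genes summed to 66.5 to 90.8 CPM with both agents and 159.5 to 189 CPM with vehicle, of which Epcam gave 62.1 and 62.9 CPM with both agents and 154 to 185 CPM with vehicle. Krt8, an epithelial keratin gene, was at 17.2 and 1.20 CPM with both agents and 0.487 to 2.68 CPM with vehicle, so that IL-25 plus ADM2 replicate 2 stood highest. Stromal and glial genes summed to 388 to 445 CPM with both agents and 236 to 247 CPM with vehicle, 244 to 264 and 116 to 121 CPM of it Pecam1. Whether these transcripts came from other cells or from the sorted ILC2s was not tested, nor was the part of these shifts in the results. In bulk RNA, fewer cells of a type and less RNA per cell cannot be told apart.

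Both agents together changed the transcripts of about 1 gene in 5 within 3 h. At a Benjamini-Hochberg adjusted p below 0.05 in edgeR's quasi-likelihood test, 3042 of 15028 genes (20.2%) were called, 1593 higher (10.6%) and 1449 lower (9.64%). A further 1775 genes had an unadjusted p below 0.05. The increases reached further than the decreases: 472 genes rose at least 2-fold (3.14%) and 363 fell at least 2-fold (2.42%), while 98 rose at least 4-fold (0.652%) and 39 fell that far (0.26%). The median log2 fold change of all tested genes was −0.02. The groups did not overlap for 3483 genes that lay higher with both agents (23.2%) and 3647 that lay lower (24.3%). With shares of this size, a lack of overlap named below for single genes only describes their values. The count of calls leaned on single libraries of both groups: it was 2210 without vehicle replicate 1 and 2224 without vehicle replicate 3. It was also smaller without either library with both agents, where the fit leaves 1 library in that group.

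**Figure D1:**
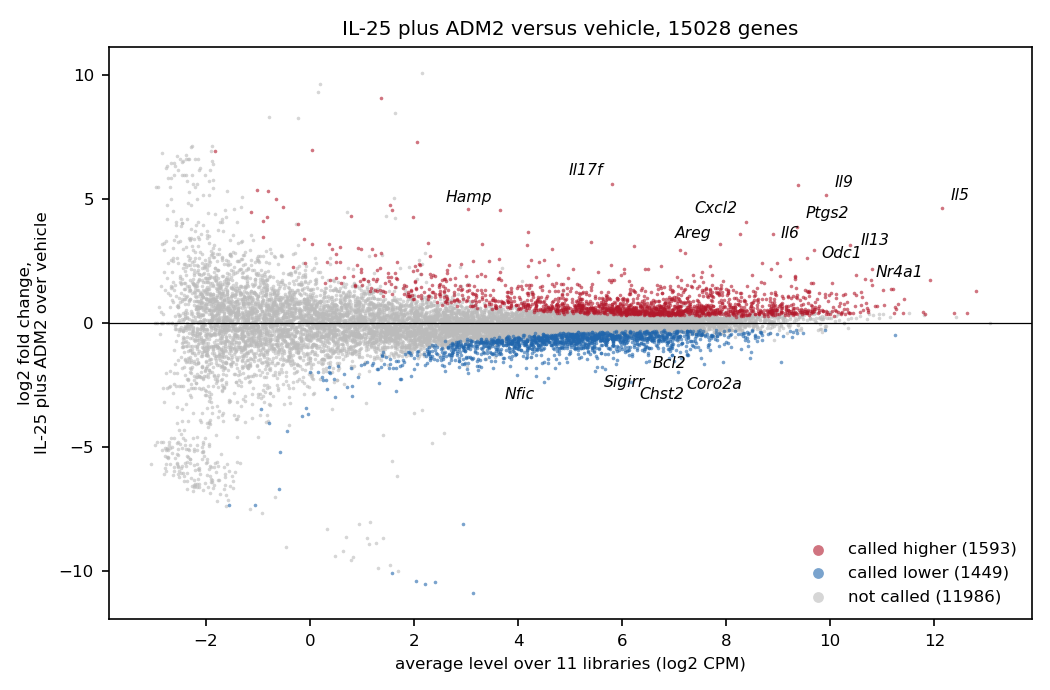
Each point is 1 of the 15028 tested genes, with its average level over 11 libraries (log2 CPM) on the x axis and its log2 fold change of IL-25 plus ADM2 over vehicle on the y axis; red points were called higher (1593) and blue points lower (1449). Il17f, at 5.62, is the highest of the labelled genes and Chst2, at −2.39, the lowest; points far beyond them include antigen receptor segments at or near 0 counts in 1 of the groups.

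Cytokine genes made up most of the largest increases. By a rule on size, level and separation of the libraries, these included Il17f (5.62 ± 0.18), Il9 (5.14 ± 0.16), Il5 (4.63 ± 0.11), Il17a (4.58 ± 0.41), Hamp (4.56 ± 0.30), Cxcl2 (4.09 ± 0.16), Ptgs2 (3.89 ± 0.10), Il24 (3.66 ± 0.24) and Il6 (3.60 ± 0.13). The largest decreases were smaller: Chst2 (−2.39 ± 0.20), Nfic (−2.38 ± 0.28), Tnfrsf26 (−2.24 ± 0.17), Trim14 (−2.14 ± 0.24), Paqr7 (−2.03 ± 0.28), Coro2a (−1.98 ± 0.13), Treml2 (−1.94 ± 0.41), Sigirr (−1.92 ± 0.16), Sema3e (−1.88 ± 0.32) and Rgs18 (−1.87 ± 0.32). Treml2 was no longer called (edgeR adjusted p = 0.0593) once IL-25 plus ADM2 replicate 3 was left out. Nfic, Trim14 and Coro2a overlap other annotated genes, so that their values are uncertain where counting did not use strand.

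Gene lists here and below were chosen with earlier results of these data known, so their counts describe the data and test nothing. Over all tested genes 10.6% rose and 9.64% fell, the shares beside which each list count is to be read. In the list of effector cytokines 19 of 22 tested members rose and 0 fell. Their median log2 fold change was 2.53, beside −0.02 over all genes. No member lay lower at an unadjusted p below 0.05, and DESeq2 and limma voom also called 0 lower. Il5 (chromosome 11, 53720794 to 53725103, mm10), whose product drives eosinophil growth, had 12538 and 14859 CPM with both agents, against 495, 589 and 579 CPM with vehicle. Both treated libraries stood far above every vehicle library, and edgeR gave a rise of 24.7-fold (adjusted p = 6.98e-13). Il13, the cytokine of mucus and goblet cell responses, had 2333 and 2578 CPM with both agents, against 269.8, 302 and 272 CPM with vehicle, and the groups did not overlap (3.13 ± 0.10, adjusted p = 1.81e-11). Il9, a mast cell and ILC2 survival factor, had 2406 and 2789.8 CPM with both agents, against 68.5, 75.97 and 75.8 CPM with vehicle. Il6 had 727 and 883 CPM with both agents, against 56.7, 75.4 and 67.4 CPM with vehicle. Csf2, which encodes GM-CSF, had 1387 and 1833 CPM with both agents, against 180.5, 235 and 211 CPM with vehicle. Each of these genes was higher in both treated libraries than in any vehicle library. Il4 moved least among the type 2 cytokines, at 42.4 and 46.4 CPM with both agents, against 18.2, 20.3 and 15.5 CPM with vehicle (1.30 ± 0.20, adjusted p = 0.000328).

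Cytokines of the IL-17 family rose from a low base. Il17f (chromosome 1, 20777146 to 20785274) had 184 and 202 CPM with both agents, against 3.12, 5.17 and 3.38 CPM with vehicle, and its neighbour Il17a 22.6 and 35.6 CPM with both agents, against 1.04, 1.73 and 0.846 CPM with vehicle. Both genes were named by a rule that required separate libraries. Genes of the ILC3 list summed to 2343 to 2541 CPM with both agents and 749 to 871 CPM with vehicle, most of it Il22 and Kit. The part of such cells was not tested. Outside the IL-17 family, further members of the effector cytokine list were Il22 (1244 and 1482 CPM with both agents, against 199.8, 266 and 198 CPM with vehicle), Il3 (4.56), Il2 (3.14) and Il10 (2.44), all called higher. Such further members, here and below, were named after their values were seen. Hamp, which encodes the iron hormone hepcidin, had 25.8 and 27.6 CPM with both agents, against 1.23, 0.730 and 1.44 CPM with vehicle. Ifng (log2 fold change −0.05), Csf1 and Il18bp were not called.

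**Figure D2:**
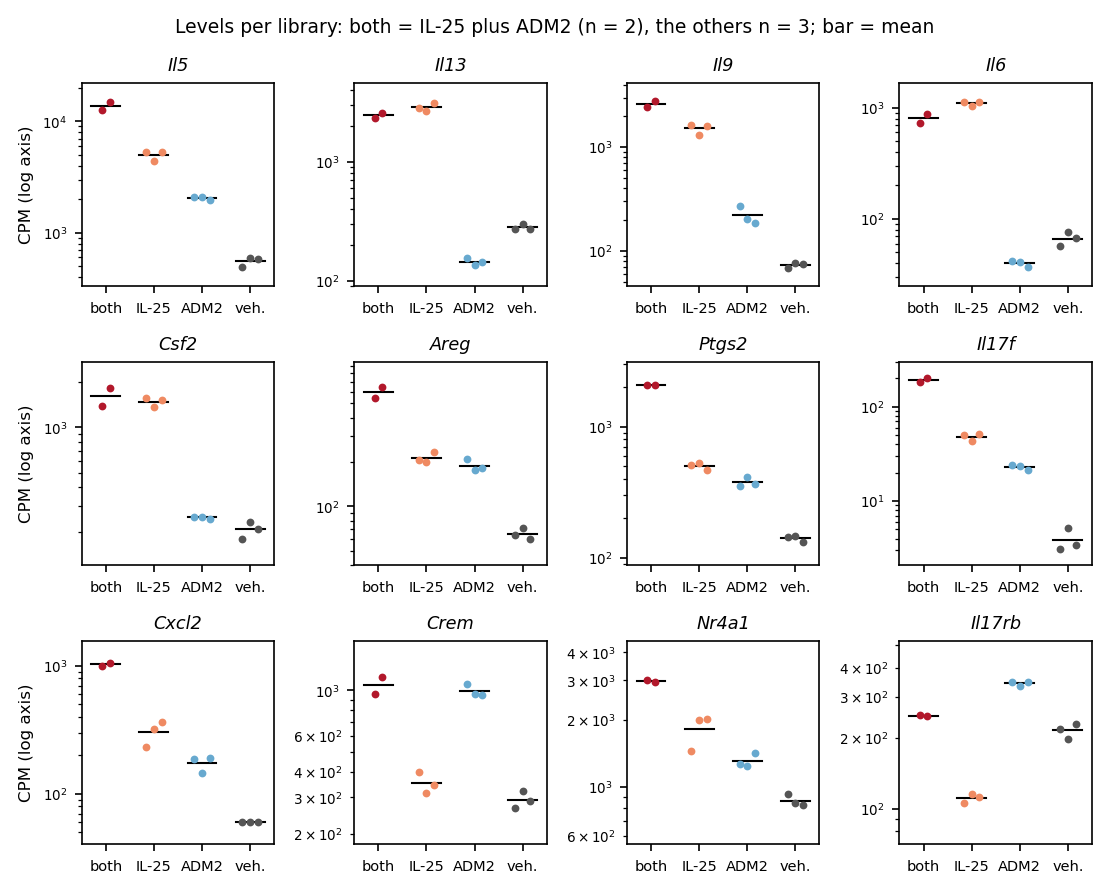
Points are single libraries and bars group means for 12 genes, in CPM on a log axis, with IL-25 plus ADM2 (both, n = 2) at the left of each panel, then IL-25, ADM2 and vehicle (n = 3 each). Il5, Areg, Ptgs2, Il17f and Cxcl2 stand higher with both agents than in any library of the other groups, Il13 and Csf2 lie near the level of IL-25 alone, and Crem near that of ADM2 alone.

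Genes of tissue repair rose in part. In that list 10 of 26 tested members rose and 0 fell (median 0.39), while 3 members lay lower at an unadjusted p below 0.05, and DESeq2 called 3 lower and limma voom 1. Areg (chromosome 5, 91139599 to 91148432), which encodes amphiregulin, a ligand of the EGF receptor with a known part in mucosal repair, had 545 and 641 CPM with both agents, against 64.3, 71.1 and 59.8 CPM with vehicle. Its groups did not overlap, and it rose 9.11-fold (adjusted p = 1.33e-10). Tgm2, the protein crosslinking enzyme transglutaminase 2, had 752 and 694 CPM with both agents, against 126, 116 and 120.4 CPM with vehicle. Plaur, the urokinase receptor gene, had 157 and 186 CPM with both agents, against 34.4, 43.005 and 35.4 CPM with vehicle. Other members called higher were Furin (1.75), a convertase of growth factor precursors, Bmp2 (1.70), Vegfa (1.62), Tgfa (1.47), Hbegf (0.79) and Adam8 (0.42). Ereg (0.54) and Inhba (2.17) were not called.

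Most listed targets of cAMP and CREB rose, in a list chosen with earlier results of these data known. Of 29 tested members 25 rose and 0 fell (median 1.37), beside 10.6% and 9.64% of all genes. None lay lower at an unadjusted p below 0.05, and DESeq2 and limma voom called 0 lower. Ptgs2 (chromosome 1, 150100031 to 150108234), which encodes cyclooxygenase 2, had 2063 and 2094 CPM with both agents, against 144, 146 and 131 CPM with vehicle, a rise of 14.8-fold. Crem, a CREB-induced transcription factor gene that feeds back on the pathway, had 957 and 1167 CPM with both agents, against 265, 324 and 287 CPM with vehicle (1.86 ± 0.12, adjusted p = 6.71e-08). The groups did not overlap for Crem, and the rule that named Ptgs2 required this. Odc1, which encodes ornithine decarboxylase, the first step to polyamines, had 3352 and 3677 CPM with both agents, against 702, 853 and 746 CPM with vehicle. Of the orphan nuclear receptor genes, Nr4a1 (chromosome 15, 101253902 to 101274795) had 3017 and 2948 CPM with both agents, against 926, 845 and 826 CPM with vehicle, and Nr4a2 (1.72) and Nr4a3 (1.37) were called too. Sik1 (1.69), Pde4b (1.21), Pde4d (0.76) and Rgs1 (1.01) and Rgs2 (1.39), whose products damp G protein signals, were also among the members that rose. Cd55, Pde3b, Pde7b and Ppargc1a were not called.

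Of the immediate early genes, 24 of 30 tested members rose and 1 fell (median 1.02); the member that fell, Dusp6, was no longer called without IL-25 plus ADM2 replicate 2. Among the genes of AP-1 subunits, Fos had 595 and 554 CPM with both agents, against 239, 225 and 234 CPM with vehicle. Junb had 3266 and 3649.7 CPM with both agents, against 1319, 1383 and 1342 CPM with vehicle. Jund had 666 and 721 CPM with both agents, against 300.3, 317 and 279 CPM with vehicle. Every library with both agents exceeded every vehicle library for these genes. Fosb (1.78), Fosl1 (1.33), Fosl2 (1.22) and Jun (1.35) were likewise called higher. Egr1, a serum response gene (−0.08), Klf6 (0.04) and Klf10 (−0.01) were not called, and Egr2 was (1.58).

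The 250 bases before a transcript start of 3 genes named above are printed because their letters carry the binding motifs of the transcription factors at the end of the cAMP and NF-kB pathways. They are RefSeq sequences of assembly GRCm38.p6, plus strand, 5′ to 3′, which is the direction of each gene. For Areg and Cxcl2 that start is the first base of the gene as given above, whereas for Nr4a1 it lies inside the annotated span of the gene. Capitals mark the cAMP response element TGACGTCA or its shorter form TGACG on either strand in Areg and Nr4a1, and the NF-kB form GGGANNTTC, where N is any base, in Cxcl2.
Areg, chr5:91139349-91139598: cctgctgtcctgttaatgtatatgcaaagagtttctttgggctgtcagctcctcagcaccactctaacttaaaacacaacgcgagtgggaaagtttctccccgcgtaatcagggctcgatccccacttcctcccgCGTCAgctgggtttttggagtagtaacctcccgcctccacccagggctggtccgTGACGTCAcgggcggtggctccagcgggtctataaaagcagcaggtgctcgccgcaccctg
Nr4a1, chr15:101266596-101266845: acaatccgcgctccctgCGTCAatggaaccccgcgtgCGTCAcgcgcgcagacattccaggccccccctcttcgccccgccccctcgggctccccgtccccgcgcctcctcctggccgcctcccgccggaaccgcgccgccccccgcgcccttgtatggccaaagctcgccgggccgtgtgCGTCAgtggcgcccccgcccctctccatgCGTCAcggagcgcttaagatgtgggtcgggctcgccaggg
Cxcl2, chr5:90903649-90903898: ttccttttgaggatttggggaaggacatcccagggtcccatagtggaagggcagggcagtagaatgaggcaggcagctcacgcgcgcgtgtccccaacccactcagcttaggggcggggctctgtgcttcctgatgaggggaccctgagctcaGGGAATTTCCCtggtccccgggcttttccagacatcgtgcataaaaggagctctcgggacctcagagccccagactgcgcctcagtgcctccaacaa
Areg held the full element 61 to 54 bases before its start and 1 more copy of the shorter form 115 to 111 bases before it. Nr4a1 held 4 copies of the shorter form, and Cxcl2 the NF-kB form on both strands, overlapping each other. These are matches of letters, not mapped binding sites.

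Across promoters of 250 bases before to 50 after the start, on both strands, TGACGTCA stood in 4.12% of the 1554 promoters of genes called higher, 1.3% of the 1618 promoters of genes called lower and 2.93% of the 14274 promoters of all tested genes that matched the table. The shorter form, which also counts every full element, stood in 39.3%, 25.2% and 29.7% of these promoters. The E-box CACGTG, bound by MYC among others, stood in 9.2% of promoters of genes called higher, 12.1% of those called lower and 9.5% of all. GGGANNTTC stood in 3.15%, 3.34% and 3.64%, and the GATA core AGATAA in 6.05%, 7.54% and 6.81%. The promoters came from 1223 genes called higher, 1167 called lower and 11253 tested genes, and a gene can have several.

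Of the NF-kB list, 28 of 35 tested members rose and 1 fell (median 1.11). The subunit genes Rel (1.70), Nfkb2 (1.13), Nfkb1 (0.73), Relb (0.55) and Rela (0.46) were called, as were the inhibitors Nfkbia (1.60) and Nfkbiz (1.62), which encodes an atypical member of that family. Tnfaip3, which encodes the deubiquitinase A20 that ends NF-kB signals, had 2989 and 2746 CPM with both agents, against 923, 802 and 863 CPM with vehicle. The libraries were well apart (1.73 ± 0.09, adjusted p = 4.51e-09). N4bp1 fell (−0.61), and Icam1 (0.16), Sod2 (0.16) and Tnip1 (−0.04) were not called.

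Among chemokines and their receptors 11 of 27 tested members rose and 2 fell (median 0.88), or 7 and 0 without IL-25 plus ADM2 replicate 3. The 2 lower members are near the share of 9.64% of all genes. Cxcl2 (chromosome 5, 90903899 to 90905938), a neutrophil attractant, had 1003 and 1052 CPM with both agents, against 60.6, 60.4 and 60.4 CPM with vehicle. Cxcl3, its neighbour, had 762 and 853 CPM with both agents, against 62.8, 83.8 and 55.4 CPM with vehicle. Reads of these related genes may be split between them by the counting. The receptor genes Ccr4 (1108 and 1108 CPM with both agents, against 305, 279.8 and 308 CPM with vehicle) and Cxcr4 (379.7 and 484 CPM with both agents, against 89.7, 103 and 71.1 CPM with vehicle) did not overlap between the groups either. Ccr8 (1.43) rose, whereas Ccr9 (−1.46), the receptor for gut homing, and Ccr2 (−0.68) were the members called lower.

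Receptors of the CGRP family changed unequally. In that list 3 of 9 tested members rose and 1 fell (median 0.99), and Adm2 itself was below the count filter. With 9 members tested, 1 lower is near the share of 9.64% of all genes. Ramp3, the RAMP that with CALCRL makes an adrenomedullin receptor, had 1299 and 1575 CPM with both agents, against 657, 787 and 701 CPM with vehicle. Calca, the gene of CGRP and calcitonin, had 1086 and 1317 CPM with both agents, against 454, 592 and 451 CPM with vehicle. Neither gene's groups overlapped. Calcrl had 28.9 and 28.2 CPM with both agents, against 39.1, 46.1 and 42.8 CPM with vehicle (−0.58 ± 0.16, adjusted p = 0.0201), a call that did not hold with vehicle replicate 2 (0.0502) or 3 (0.0501) or IL-25 plus ADM2 replicate 2 (0.0806) or 3 (0.124) left out. Ramp1 had 10.7 and 8.60 CPM with both agents, against 11.6, 13.04 and 10.6 CPM with vehicle and was not called (adjusted p = 0.523). Adm, the gene of adrenomedullin, had 11.2 and 7.98 CPM with both agents, against 1.85, 1.92 and 1.80 CPM with vehicle. Ramp3 and Adm overlap predicted genes.

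Of the alarmin and cytokine receptors, 10 of 33 tested members rose and 1 fell (median 0.35). Il17rb, the subunit that binds IL-25, had 251 and 248 CPM with both agents, against 218, 199 and 230.3 CPM with vehicle, and the difference was not called (0.21 ± 0.09, adjusted p = 0.144). Il1rl1, given above, rose 2.49-fold, and Il2rb, a shared chain of the IL-2 and IL-15 receptors, had 1702 and 1588 CPM with both agents, against 750.2, 723 and 762 CPM with vehicle. Csf2rb2 had 207 and 198 CPM with both agents, against 26.3, 24.9 and 27.7 CPM with vehicle, but its reads can be shared with its near-identical neighbour Csf2rb (1.83). Il10ra (1.27), Il2ra (0.98) and Il4ra (0.73) rose as well. Il12rb1 (−1.40) fell, and Il7r, the receptor of the IL-7 in the medium, was not called (0.09).

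Transcription factor genes of ILC2s moved in both directions: 18 of 34 tested members rose and 5 fell (median 0.51), but 9 rose without IL-25 plus ADM2 replicate 2. Nfil3, needed for innate lymphoid cell development, had 371 and 380.3 CPM with both agents, against 149, 139.6 and 134 CPM with vehicle. Irf4 had 2040.3 and 1816 CPM with both agents, against 837, 845 and 996 CPM with vehicle. Zeb2 had 132 and 113 CPM with both agents, against 50.8, 40.9 and 50.7 CPM with vehicle. Bhlhe40 had 825 and 841 CPM with both agents, against 411, 397 and 354 CPM with vehicle. The groups did not overlap for these genes. Gata3, the ILC2 master regulator, rose by a small step (0.52 ± 0.14, adjusted p = 0.0158), which was not called without IL-25 plus ADM2 replicate 2 (0.092) or 3 (0.065). Rora (1.64) and Hhex (2.51) rose, and Maf (−0.64), Gfi1 (−0.66), Bach2 (−0.64), Klf13 (−0.67) and Ahr (−0.55) fell.

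Among STAT5 targets and SOCS feedback genes 14 of 21 tested members rose and 1 fell (median 0.79). Pim3, a survival kinase gene, had 472 and 519 CPM with both agents, against 229, 238 and 233 CPM with vehicle. Gadd45g had 622 and 659.6 CPM with both agents, against 184, 223 and 198 CPM with vehicle. Osm, the gene of the cytokine oncostatin M, had 249.5 and 276 CPM with both agents, against 114, 126 and 123 CPM with vehicle. Socs2 (1.04), Socs3 (0.89) and Cish (0.79), inhibitors of cytokine signalling, were called, and Socs1 (0.02) was not. The member that fell was Bcl2, an inhibitor of apoptosis, with 62.03 and 54.1 CPM with both agents, against 135, 125 and 121 CPM with vehicle. In the BCL2 family 5 of 17 tested members rose and 4 fell (median 0.31), or 3 higher without IL-25 plus ADM2 replicate 3. Bcl2l1, the gene of the survival protein BCL-XL, had 349.7 and 365 CPM with both agents, against 151, 171 and 146 CPM with vehicle. Bcl2l11, the gene of the death-promoting protein BIM, had 615 and 566 CPM with both agents, against 272, 252 and 271 CPM with vehicle, so that members of opposite function rose. Bmf (−1.36) and Bid (−1.12), which promote apoptosis, fell.

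Checkpoint and co-stimulatory receptor genes also moved both ways: 5 of 19 tested members rose and 4 fell (median 0.32). DESeq2 called 8 higher, and 2 were lower without IL-25 plus ADM2 replicate 3. Pdcd1, the gene of PD-1, had 295 and 331 CPM with both agents, against 127, 119 and 105 CPM with vehicle. Icos, a survival receptor of ILC2s, had 3308 and 3304 CPM with both agents, against 1831, 1977 and 1977 CPM with vehicle. Cd28 had 157 and 152 CPM with both agents, against 80.01, 86.04 and 89.9 CPM with vehicle. Cd226, an activating receptor gene that fell, had 38.6 and 36.2 CPM with both agents, against 77.1, 84.7 and 78.3 CPM with vehicle. No overlap between groups was seen for these genes. In the TNF superfamily 9 of 25 tested members rose and 4 fell (median 0.32), or 4 and 2 without IL-25 plus ADM2 replicate 3. Tnfrsf9, the gene of the co-stimulatory receptor 4-1BB, had 2943 and 2970.4 CPM with both agents, against 967, 1202 and 920.5 CPM with vehicle. Tnfsf11, the gene of RANK ligand, had 58.1 and 54.4 CPM with both agents, against 24.3, 23.5 and 26.4 CPM with vehicle. Tnfsf8 had 19.6 and 18.998 CPM with both agents, against 5.13, 4.79 and 4.65 CPM with vehicle. Tnfsf10, which encodes the death ligand TRAIL, fell to 44.3 and 35.9 CPM with both agents, against 103, 88.4 and 98.6 CPM with vehicle.

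Receptors for neural and lipid mediators fell more often than they rose: 5 of 23 tested members rose and 9 fell (median −0.26), or 5 lower without IL-25 plus ADM2 replicate 3. Nmur1, the receptor of the neuropeptide neuromedin U and a known activator of ILC2s, had 26.6 and 31.9 CPM with both agents, against 66.8, 67.5 and 64.7 CPM with vehicle (−1.18 ± 0.16, adjusted p = 0.000108). The Gs-coupled receptor genes Adora2a (539 and 547 CPM with both agents, against 227, 227 and 230.4 CPM with vehicle) and Gpr65 (299 and 315 CPM with both agents, against 109, 127 and 122 CPM with vehicle) rose. The groups were apart for these genes and for Nmur1. Lpar5 (−1.70), P2ry1 (−1.66), Cnr2 (−1.49) and Cysltr1 (−0.71) were among those that fell. In the adhesion and egress list 5 of 19 tested members rose and 3 fell (median −0.01), with 1 lower without either replicate of IL-25 plus ADM2. Cd69, a tissue retention gene, had 277 and 336 CPM with both agents, against 117, 145 and 127 CPM with vehicle. S1pr1 rose (1.73) and S1pr4 fell, at 65.7 and 67.1 CPM with both agents, against 134, 136 and 128 CPM with vehicle.

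**Figure D3:**
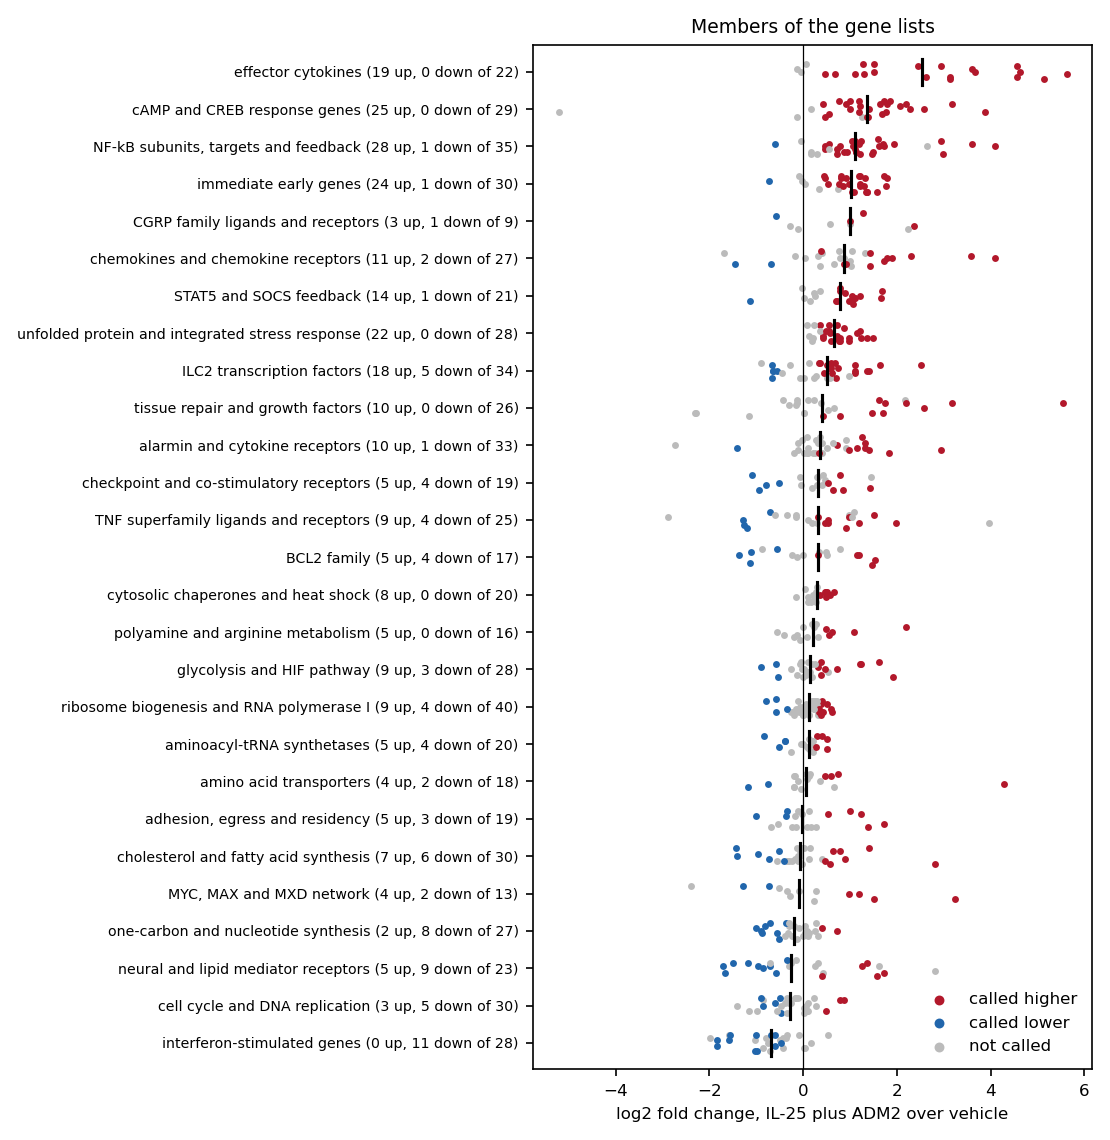
Each point is a tested member of 1 of the 27 gene lists, placed by its log2 fold change of IL-25 plus ADM2 over vehicle; red was called higher, blue lower and grey neither, and the black bar is the list's median. The lists run from effector cytokines (median 2.53) at the top to interferon-stimulated genes (median −0.69) at the bottom.

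Genes of the unfolded protein and integrated stress response rose widely: 22 of 28 tested members rose and 0 fell (median 0.65). None lay lower at an unadjusted p below 0.05, and DESeq2 and limma voom called 0 lower. Hspa5, the gene of the endoplasmic reticulum chaperone BiP, had 3306 and 3739.8 CPM with both agents, against 1209, 1509 and 1361 CPM with vehicle. Hsp90b1 had 1280.3 and 1359.8 CPM with both agents, against 680.3, 807 and 682 CPM with vehicle. Dnajb9 had 159 and 156 CPM with both agents, against 65.2, 76.2 and 62.5 CPM with vehicle. Ppp1r15a, a feedback phosphatase subunit of that response, had 571 and 534 CPM with both agents, against 208, 194 and 187 CPM with vehicle. All 4 were apart between the groups, while Ddit3, the gene of the stress factor CHOP, was not called (0.09). Of the cytosolic chaperones 8 of 20 tested members rose and 0 fell (median 0.30), with 13 higher without vehicle replicate 2. None of these was lower at an unadjusted p below 0.05 or called lower by DESeq2 or limma voom. Hspa8 had 2554 and 2779.8 CPM with both agents, against 1604, 1740.0 and 1744 CPM with vehicle. Hsp90ab1 had 4013 and 4053 CPM with both agents, against 2895, 3106 and 2801 CPM with vehicle.

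Genes of the MYC network and of ribosome biogenesis rose in part. Myc had 521 and 514 CPM with both agents, against 267, 259 and 258 CPM with vehicle (0.99 ± 0.10), and Mycn, its relative, 102 and 108 CPM with both agents, against 11.4, 10.01 and 11.8 CPM with vehicle. Mxd1 (463 and 419 CPM with both agents, against 203, 186 and 186 CPM with vehicle) and Mxi1 (163 and 169.8 CPM with both agents, against 59.1, 57.04 and 58.03 CPM with vehicle), which encode antagonists of MYC at shared binding sites, rose as well. In that network 4 of 13 tested members rose and 2 fell (median −0.08), with 1 lower without vehicle replicate 1 or IL-25 plus ADM2 replicate 3. Of the ribosome biogenesis genes 9 of 40 tested members rose and 4 fell (median 0.13). The count of lower members is near the 9.64% of all genes. The counts were 2 and 1 without IL-25 plus ADM2 replicate 3, and 3 and 4 rose without vehicle replicate 1 and 3. Nop56 had 388 and 416 CPM with both agents, against 248, 289 and 262 CPM with vehicle. Nop58 had 332 and 342 CPM with both agents, against 227, 253 and 229 CPM with vehicle, although both hold small nucleolar RNA genes in their introns. Utp20, a processing factor of the small ribosomal subunit, fell, at 74.002 and 64.01 CPM with both agents, against 121, 109.6 and 129 CPM with vehicle. Polr1c rose (0.63 ± 0.14), but with an edgeR adjusted p of 0.0702 once IL-25 plus ADM2 replicate 3 was left out.

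One-carbon and nucleotide synthesis genes leaned downward: 2 of 27 tested members rose and 8 fell (median −0.20), with 1 higher when vehicle replicate 1 or 3 or either replicate with both agents was left out. The 2 higher members are near the share of 10.6% of all genes. Mthfd1, a cytosolic folate enzyme, had 61.996 and 58.7 CPM with both agents, against 109, 117 and 105 CPM with vehicle. Slc19a1, the reduced folate carrier gene, had 28.7 and 30.2 CPM with both agents, against 53.7, 59.3 and 52.1 CPM with vehicle. Gart, an enzyme of purine synthesis, had 102 and 94.1 CPM with both agents, against 162, 168 and 149 CPM with vehicle. Mthfd2, the mitochondrial counterpart of Mthfd1, rose instead, at 129.7 and 139 CPM with both agents, against 79.1, 87.8 and 75.3 CPM with vehicle. The groups did not overlap for these 4 genes. Of the aminoacyl-tRNA synthetases 5 of 20 tested members rose and 4 fell (median 0.12), counts that fell to 2 and 2 without vehicle replicate 3 or either replicate with both agents, and to 3 higher without vehicle replicate 1, ADM2 replicate 3 or IL-25 replicate 3. Vars fell (−0.83 ± 0.11) and Nars (0.52 ± 0.10) and Cars (0.51 ± 0.10) rose. Of the amino acid transporters 4 of 18 tested members rose and 2 fell (median 0.06), with 2 higher without vehicle replicate 3 or IL-25 plus ADM2 replicate 3. Lower transporters were near the share of 9.64% of all genes. Slc3a2, the heavy chain of several such carriers, had 721 and 790.3 CPM with both agents, against 477, 547 and 465 CPM with vehicle. Slc43a2 had 10.3 and 11.6 CPM with both agents, against 30.9, 22.9 and 20.7 CPM with vehicle.

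In polyamine and arginine metabolism 5 of 16 tested members rose and 0 fell (median 0.21), or 3 higher without IL-25 plus ADM2 replicate 3. None lay lower at an unadjusted p below 0.05, and DESeq2 and limma voom called 0 lower. Besides Odc1, Smox, the gene of spermine oxidase, had 755 and 815 CPM with both agents, against 358, 376 and 370.2 CPM with vehicle. Azin1, an inhibitor of antizyme, had 227 and 223 CPM with both agents, against 129, 154 and 157 CPM with vehicle. Arg1, an arginase gene that marks ILC2s, was not called (−0.14). In the glycolysis and HIF list 9 of 28 tested members rose and 3 fell (median 0.15). Its 3 lower members are near the share of 9.64% of all genes. Hif1a had 1485 and 1397 CPM with both agents, against 588, 606 and 669.8 CPM with vehicle. Egln3, a prolyl hydroxylase that marks HIF for decay, had 557 and 598 CPM with both agents, against 148, 160.1 and 149 CPM with vehicle. Hk2, a hexokinase gene, had 364 and 302 CPM with both agents, against 154, 131 and 140.1 CPM with vehicle. The groups of these genes lay apart, whereas Pfkp (0.16), Pkm (0.08) and Pgk1 (0.02) were not called. In cholesterol and fatty acid synthesis 7 of 30 tested members rose and 6 fell (median −0.07), or 3 lower without IL-25 plus ADM2 replicate 3. Dgat2 (280.4 and 313 CPM with both agents, against 43.7, 42.95 and 40.2 CPM with vehicle) and Dgat1 (949 and 974 CPM with both agents, against 358, 365 and 368 CPM with vehicle), which encode enzymes of triglyceride storage, rose, and Scd2, a desaturase gene, fell, at 28.4 and 22.6 CPM with both agents, against 74.8, 61.99 and 67.3 CPM with vehicle.

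Interferon-stimulated genes were the list that lay lowest: 0 of 28 tested members rose and 11 fell (median −0.69). None was higher at an unadjusted p below 0.05, and DESeq2 and limma voom called 0 higher. The count lower was 6 without vehicle replicate 3 or IL-25 plus ADM2 replicate 2, and 7 without IL-25 plus ADM2 replicate 3 or with the replicate number as a block. Oas3, an antiviral sensor gene, had 38.3 and 46.6 CPM with both agents, against 117, 108 and 151 CPM with vehicle (−1.56 ± 0.19, adjusted p = 3.93e-05). Stat2 had 58.6 and 54.2 CPM with both agents, against 115, 81.7 and 139 CPM with vehicle. Zbp1, a sensor of nucleic acids, had 26.5 and 28.8 CPM with both agents, against 48.7, 53.8 and 63.5 CPM with vehicle. Neither these nor Oas3 overlapped between the groups. Isg15 (0.05) and Mx1 (0.02) were not called.

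Of the cell cycle genes 3 of 30 tested members rose and 5 fell (median −0.28), so that 26.7% were called beside 20.2% of all genes. The count of higher members is near the 10.6% of all genes. DESeq2 called 8 lower, and 1 was higher without vehicle replicate 1 or 3. Cdkn1a, the gene of the cycle inhibitor p21, had 692 and 723 CPM with both agents, against 423, 407 and 401 CPM with vehicle. Mcm6, part of the replicative helicase, had 78.5 and 95.1 CPM with both agents, against 157, 167 and 150.0 CPM with vehicle. Mcm7 had 37.3 and 38.2 CPM with both agents, against 55.4, 58.8 and 56.2 CPM with vehicle. Cdk6 had 27.6 and 21.1 CPM with both agents, against 49.3, 36.5 and 49.3 CPM with vehicle. Mki67 (−0.35) and Top2a (−0.18), which mark dividing cells, were not called.

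Among the genes that fell most, Chst2 (chromosome 9, 95400926 to 95407270), a sulfotransferase gene, had 32.3 and 23.7 CPM with both agents, against 162, 153 and 124 CPM with vehicle, a fall of 5.23-fold (adjusted p = 9.03e-07). Coro2a, the gene of a coronin, had 64.5 and 63.4 CPM with both agents, against 277, 243 and 238 CPM with vehicle. Sigirr, which encodes a receptor that inhibits signalling by IL-1 family receptors, had 18.8 and 21.6 CPM with both agents, against 74.3, 78.5 and 76.3 CPM with vehicle. The rule that named the genes of this paragraph required separate libraries, so their separation is no further result. Over all tested genes 24.3% lay lower without overlap. Nfic, a transcription factor gene, had 8.62 and 5.99 CPM with both agents, against 46.7, 32.5 and 34.8 CPM with vehicle. Tnfrsf26, a gene of the TNF receptor superfamily, had 7.90 and 9.98 CPM with both agents, against 41.6, 41.8 and 43.2 CPM with vehicle.

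The single agents were set beside the combination to show where it lay relative to each. IL-25 plus ADM2 differed from IL-25 alone in 2198 of 15028 genes (14.6%), 981 higher (6.53%) and 1217 lower (8.1%), or 1233 higher and 914 lower with upper-quartile scaling. It differed from ADM2 alone in 1630 genes (10.8%), 927 higher (6.17%) and 703 lower (4.68%). At least 2-fold, 322 genes were higher than with IL-25 alone (2.14%) and 177 lower (1.18%), and 199 were higher than with ADM2 alone (1.32%) and 134 lower (0.892%). These comparisons share the pair of libraries with both agents, and each is given by its own values. Leaving out IL-25 plus ADM2 replicate 3 cut the counts to 1263 against IL-25 and 739 against ADM2.

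Some genes were higher with both agents than with either agent alone. Areg averaged 593 ± 68.2 CPM with both agents (SD, n = 2), 213 ± 17.7 CPM with IL-25, 189 ± 17.6 CPM with ADM2 and 65.05 ± 5.70 CPM with vehicle (n = 3 each). Both differences were called: 1.48 ± 0.12 against IL-25 (adjusted p = 1.26e-06) and 1.65 ± 0.12 against ADM2 (4.58e-07). Il5 averaged 13699 ± 1641 CPM with both agents (SD, n = 2), 5013 ± 499.9 CPM with IL-25, 2043 ± 84.01 CPM with ADM2 and 554 ± 51.9 CPM with vehicle (n = 3 each), and Ptgs2 2078 ± 22.1 CPM with both agents (SD, n = 2), 504 ± 31.8 CPM with IL-25, 375 ± 35.4 CPM with ADM2 and 140.2 ± 8.35 CPM with vehicle (n = 3 each). Cxcl2 averaged 1027 ± 34.7 CPM with both agents (SD, n = 2), 304 ± 66.4 CPM with IL-25, 174 ± 23.999 CPM with ADM2 and 60.5 ± 0.126 CPM with vehicle (n = 3 each), and Il17f 193 ± 12.6 CPM with both agents (SD, n = 2), 48.4 ± 4.40 CPM with IL-25, 23.02 ± 1.48 CPM with ADM2 and 3.89 ± 1.11 CPM with vehicle (n = 3 each). Nr4a1 and Il17a were higher than with either agent alone as well, at log2 fold changes of 0.72 and 2.59 against IL-25 and 1.19 and 2.70 against ADM2. Il4 averaged 44.4 ± 2.85 CPM with both agents (SD, n = 2), 20.8 ± 3.29 CPM with IL-25, 27.8 ± 8.10 CPM with ADM2 and 17.98 ± 2.40 CPM with vehicle (n = 3 each) (adjusted p = 0.00188 against IL-25 and 0.0457 against ADM2). Lower than with either agent alone were Nfic (−1.49 against IL-25 and −1.36 against ADM2), Tnfrsf26 (−1.01 and −1.24), Oas3 (−1.04 and −0.95), Eri2 (−0.99 and −1.36) and Tnfrsf22 (−1.03 and −0.80). Adal also met that rule, with an adjusted p of 0.0491 against ADM2 and a call against vehicle that was lost without IL-25 plus ADM2 replicate 2 (0.107).

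Other genes lay near the level of 1 agent. Il13 averaged 2455 ± 174 CPM with both agents (SD, n = 2), 2852 ± 217 CPM with IL-25, 144 ± 11.02 CPM with ADM2 and 281 ± 17.96 CPM with vehicle (n = 3 each). Against IL-25 alone the difference of −0.22 ± 0.10 was not called (adjusted p = 0.166), and against ADM2 alone it was 4.09 ± 0.10 (2.99e-12). Csf2 was not called different from IL-25 alone (0.12 ± 0.13, adjusted p = 0.622). Crem averaged 1062 ± 149 CPM with both agents (SD, n = 2), 353 ± 41.4 CPM with IL-25, 995 ± 69.7 CPM with ADM2 and 292 ± 29.5 CPM with vehicle (n = 3 each), with a difference of 0.09 ± 0.12 from ADM2 alone that was not called (adjusted p = 0.738). A p that misses the threshold does not show that these levels were alike.

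A further group of genes lay between the levels of the single agents, apart from both. Il6 was lower than with IL-25 alone (−0.45 ± 0.12, adjusted p = 0.023) and higher than with ADM2 alone (4.33 ± 0.13, adjusted p = 2.13e-11). Shmt1, a cytosolic enzyme of serine and glycine exchange, averaged 14.4 ± 2.02 CPM with both agents (SD, n = 2), 47.8 ± 0.388 CPM with IL-25, 4.13 ± 0.400 CPM with ADM2 and 17.8 ± 0.843 CPM with vehicle (n = 3 each), and its difference from vehicle was not called (−0.30 ± 0.14, adjusted p = 0.155). Mmp10, a metalloproteinase gene, averaged 12.1 ± 0.296 CPM with both agents (SD, n = 2), 35.2 ± 5.50 CPM with IL-25, 3.25 ± 0.515 CPM with ADM2 and 6.91 ± 1.96 CPM with vehicle (n = 3 each), and its call against vehicle (adjusted p = 0.0216) did not hold once vehicle replicate 1 (0.0749) or IL-25 plus ADM2 replicate 2 (0.0725) or 3 (0.11) was left out, with the replicate number as a block (0.0507) or with only the groups compared in the fit (0.0561). Cdk5r1 and Nhlrc1 had the same order and were not called against vehicle (adjusted p = 0.106 and 0.21), though Cdk5r1 was called without vehicle replicate 2 (0.00665) and by DESeq2 (0.0494). In the other order, Cd93 averaged 84.6 ± 1.63 CPM with both agents (SD, n = 2), 30.6 ± 7.79 CPM with IL-25, 229.8 ± 32.04 CPM with ADM2 and 60.2 ± 4.67 CPM with vehicle (n = 3 each), with an adjusted p of 0.0503 against vehicle that moved to either side of the threshold with the settings. Kif23, a gene of cell division, averaged 50.6 ± 3.86 CPM with both agents (SD, n = 2), 21.5 ± 2.32 CPM with IL-25, 118 ± 5.96 CPM with ADM2 and 33.9 ± 3.04 CPM with vehicle (n = 3 each), and was called higher than vehicle (adjusted p = 0.00354). Nt5e, the gene of the ectonucleotidase CD73, averaged 52.8 ± 1.84 CPM with both agents (SD, n = 2), 24.7 ± 6.66 CPM with IL-25, 131 ± 11.7 CPM with ADM2 and 75.6 ± 10.5 CPM with vehicle (n = 3 each), and its adjusted p against vehicle was 0.0649. It was called lower in 7 of the 19 alternatives, with adjusted p of 0.0288 by DESeq2, 0.0432 by limma voom, 0.0141 with no filter, 0.0253 with only the groups compared, 0.0463 without vehicle replicate 3, and 0.0426 and 0.0154 without IL-25 replicate 1 or 3. Hmga2-ps1, a pseudogene whose reads may come from its parent gene, stood in the same order, and its call against vehicle (adjusted p = 0.0463) was lost when either IL-25 plus ADM2 replicate, vehicle replicate 2 or 3, IL-25 replicate 2 or any ADM2 replicate was left out, with the replicate number as a block (0.0706) and with only the groups compared (0.113). Of the receptor genes, Il17rb and Ramp3 also lay between: Il17rb averaged 249 ± 2.25 CPM with both agents (SD, n = 2), 111 ± 5.37 CPM with IL-25, 344 ± 7.30 CPM with ADM2 and 216 ± 15.7 CPM with vehicle (n = 3 each), and Ramp3 1437 ± 195 CPM with both agents (SD, n = 2), 529 ± 3.04 CPM with IL-25, 1856 ± 139 CPM with ADM2 and 715 ± 65.9 CPM with vehicle (n = 3 each). Calcrl did not, as its mean with both agents was the lowest of the 4 groups: it averaged 28.5 ± 0.560 CPM with both agents (SD, n = 2), 43.97 ± 7.47 CPM with IL-25, 31.6 ± 5.03 CPM with ADM2 and 42.7 ± 3.46 CPM with vehicle (n = 3 each), lower than with IL-25 alone (−0.62 ± 0.16, adjusted p = 0.0176) and not called different from ADM2 alone (−0.15 ± 0.16, adjusted p = 0.676).

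**Figure D4:**
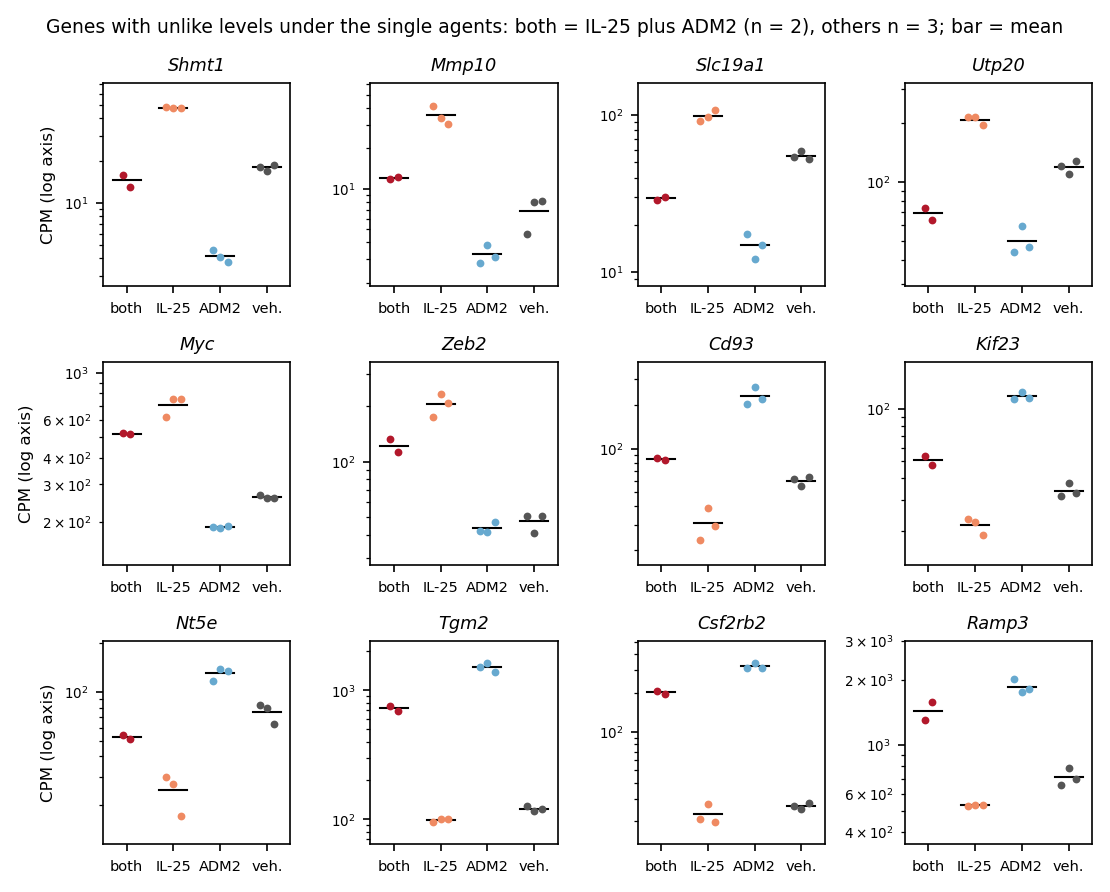
Points are single libraries and bars group means for 12 genes, in CPM on log axes, with IL-25 plus ADM2 (both, n = 2) at the left of each panel, then IL-25, ADM2 and vehicle (n = 3 each). In each panel the level with both agents lies between those of IL-25 alone and ADM2 alone, and for Shmt1 the vehicle libraries, at 17.9, 16.96 and 18.6 CPM, lie just above those with both agents, at 15.9 and 13.01 CPM.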

How the data were processed

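The authors deposited raw counts of reads for each gene (Entrez IDs, whole numbers) of 27179 genes in 11 libraries. Per the labels' protocols, the PicoPure kit was used for RNA, which was sequenced as 150 bp paired-end reads. Per the submitters' processing notes, the tools were featureCounts and limma, on mm10. Aligner, annotation release and strand use were not given in the sources used here, which leaves overlapping genes and near-identical copies uncertain. Of counts from 1 to 10, 67.9% to 73% were even, against 48.5% to 52.9% of counts from 51 to 200; how read pairs were counted is not stated, and low counts may rest on fewer fragments than they state. Symbols and coordinates came from RefSeq (GRCm38.p6), with a match for 25275 IDs and none for 1904.

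Testing used edgeR 4.0.16 (R 4.3.3) with TMM factors, filterByExpr at a minimum count of 10, a quasi-likelihood F test (1 mean for each group, all 11 libraries), and Benjamini-Hochberg adjustment at 0.05. Each SE was taken as the size of the log2 fold change over the square root of its F value and is approximate. The common biological coefficient of variation was 0.282. On data simulated for IL-25 plus ADM2 versus vehicle (15028 genes, 200 changed, 5 simulations), 61.8% of 2-fold and 23% of 1.5-fold changes were recovered, and 2.95% of calls were unchanged genes. Far fewer genes changed there than the 3042 called in the data, so these shares may not hold for the data. TMM factors were 0.904 to 0.933 with both agents and 1.09 to 1.12 with vehicle, mitochondrial transcripts 1.23% to 1.54% of counts over all libraries. Within groups, libraries differed by more than sampling noise (chi-square per degree of freedom 16 to 54.7).

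Named genes were the 10 largest increases and decreases (called, average of at least 2 log2 CPM, no overlap between libraries, no predicted, microRNA, unnamed or antigen receptor genes), 17 genes whatever their result, up to 4 members per list by smallest p, 6 genes in each direction beyond both single agents and 4 in each order between them. The members, lists and rules were chosen with earlier results of these data known. Some genes chosen by the rules are left out of the text. Other settings tried were DESeq2 1.42.0, limma voom 3.58.1, other scalings and filters, only the groups compared, a replicate block and leaving out each library.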

Additional observations from a re-analysis of the deposited data

How the results depend on the processing

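Over 19 alternatives (tools, scalings, filters, the groups fitted, a replicate block and each library left out), 0 of the calls shared with the edgeR fit of all libraries changed sign in IL-25 plus ADM2 versus vehicle. Of 2527 results of named genes and settings, 2482 kept their side of the threshold, 26 lost the call, 19 gained it and 0 reversed. The count of called genes was 3770 with DESeq2, 3116 with limma voom, 3066 and 3058 with median-ratio and upper-quartile factors, 3202 with no filter and 3197 with a minimum count of 30. Leaving out 1 library gave 1644 to 3437 called, 917 to 1775 higher and 727 to 1662 lower. Against IL-25 these ranges were 1263 to 2261, 586 to 1118 and 677 to 1212, with 793 lower when only the groups compared were fitted, and against ADM2 they were 739 to 1926, 463 to 1109 and 276 to 849. The lowest counts against vehicle came without IL-25 plus ADM2 replicate 3, which leaves 1 library there that is assumed to vary like the other groups. The replicate block gave 2456 calls, 2393 of them shared. Same-numbered deviations from group means correlated at −0.07 to 0.07, and replicate 2 minus 3 at −0.05 between the 2 groups. Other-numbered deviations had the range −0.07 to 0.07 too, partly because the 2 libraries with both agents deviate by opposite amounts. Whether same-numbered samples were paired cannot be decided from these values, and the labels do not state it. With 2 libraries against 3, smaller changes may have been missed. The simulation changed only 200 of 15028 genes, whereas 3042 were called in the data. Its recovery may therefore not carry over to this comparison.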
